A study of Saccharomyces cerevisiae with 5 samples.

Results

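Arginine biosynthesis in Saccharomyces cerevisiae was followed through 7 genes: ARG2, ARG8, ARG7, CPA1, ARG3, ARG1 and ARG4. They were chosen by name as pathway enzymes, and each was read from the array's probe set that the platform annotation gives to that gene alone. They are 7 of 5656 genes with such a probe set. The arrays hold poly(A) RNA of 2 strains. The first is an isogenic Δrsf2 mutant of BY4741, which lacks RSF2 (YJR127C, also named ZMS1), the gene of a zinc-finger protein, with 2 biological replicates. The second is its wild-type parent BY4741, a common MATa laboratory strain that also lacks functional HIS3, LEU2, MET17 and URA3, with 3 biological replicates. Both were grown on YPG, a rich medium with glycerol as its carbon source, to an A600 of 0.6, and the comparison asks which transcripts differ when RSF2 is missing during respiratory growth. The treatment label also speaks of a move from dextrose medium into YPG for some minutes, which the series design does not mention, so steady growth on glycerol is taken from the design alone.

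Yeast makes arginine from glutamate. The early steps run in the mitochondrial matrix on acetylated intermediates and end in ornithine, which is carried to the cytosol. There it is joined to carbamoyl phosphate and converted to arginine through citrulline and argininosuccinate. The pathway is known for a double control. Gcn4 activates its genes when amino acids run short, and a complex of Arg80, Arg81, Arg82 and Mcm1 represses several of them and activates the breakdown genes CAR1 and CAR2 when arginine is plentiful. CPA1 has a further control at translation, by a short upstream reading frame that senses arginine.

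Values below are signals in arbitrary units, with every array rescaled to a trimmed mean of 500, and differences are on the log2 scale as Δrsf2 minus wild type. The deposited trimmed mean was 100.1 in Δrsf2 replicate 1 and 500.3 in Δrsf2 replicate 2, against 500.3 to 500.7 in the wild type, so that the signals of Δrsf2 replicate 1 were multiplied by 4.99. Signals under 28.1, the 10th percentile of all values of single-gene probe sets, were set to that floor before log2 was taken. RSF2 was at 9.49 and 3.30 in Δrsf2 and at 203, 254 and 416 in the wild type, at least 9.90-fold lower in the mutant, so all 5 labels match the genotype. A spike-in control transcript (CreX) read 48446 in the first Δrsf2 array and 52713 in the first wild-type array, against 2216 in Δrsf2 replicate 2 and 2631 and 9326 in the other wild-type arrays. The first pair is called the high spike-in set and the other 3 arrays the low set, and each set holds both strains. ACT1, read as a measure of RNA integrity, had a 3' signal over its 5' signal of 4.91 and 1.55 in the Δrsf2 arrays and 2.76, 2.28 and 1.69 in the wild-type arrays. Across genes the log2 signals of the Δrsf2 arrays correlated with each other at r = 0.70, and those of the wild-type arrays at 0.89 to 0.93. With so few arrays every value is imprecise.

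No gene of arginine biosynthesis passed the test. By limma, 0 of 7 genes had a Benjamini-Hochberg adjusted p under 0.05, where the share of all 4245 tested genes was 0%, and 1 of 7 had an unadjusted p under 0.05, where 139 genes or 3.27% did. Their limma adjusted p was 0.9996 in each case. By value 4 genes were higher in Δrsf2 (ARG3, CPA1, ARG1 and ARG4) and 3 lower (ARG8, ARG2 and ARG7), beside 47.7% of all tested genes that were higher. The median log2 difference was 0.06, from -0.85 for ARG8 to 1.33 for ARG3, and that of all tested genes was -0.03. The 2 Δrsf2 arrays were separated from the 3 wild-type arrays for 2 of 7 genes, ARG3 and ARG8, and for 15.1% of all tested genes. ARG3 and ARG8 lay under the signal filter of 129 that other genes had to pass and were tested by exception, and the remaining 5 genes ran from -0.04 to 0.65.

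**Figure D1:**
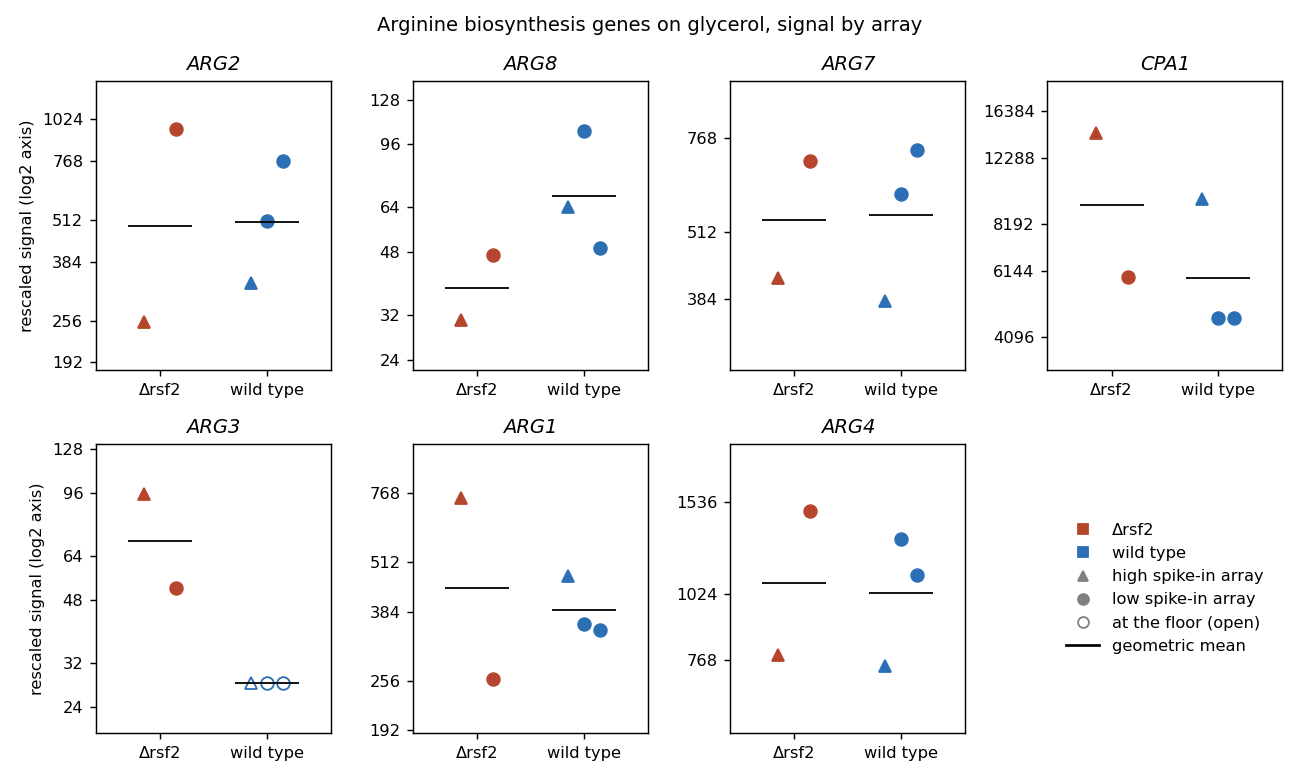
Rescaled signal of each gene by array, on a log2 axis of its own for each gene, with Δrsf2 left of wild type, triangles for the high and circles for the low spike-in set, open symbols at the floor of 28.1 and lines at the geometric mean. The strains are separated for ARG3, with all 3 wild-type arrays at the floor, and narrowly for ARG8, and they overlap for the other 5 genes.

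The mitochondrial part of the pathway begins with ARG2 (YJL071W), acetylglutamate synthase, which commits glutamate to ornithine. Its signal was 253 and 960.1 in Δrsf2, and 332, 509 and 768 in the wild type. The Δrsf2 arrays lay on either side of the whole wild-type range. The log2 difference was -0.04 ± 0.64 (SE; 95% interval -1.44 to 1.36).

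ARG8 (YOL140W) encodes acetylornithine aminotransferase, which makes the acetylornithine that ARG7 acts on. Its signal was 31.0 and 47.0 in Δrsf2, and 63.9, 104 and 49.1 in the wild type. Both Δrsf2 arrays lay below every wild-type array, Δrsf2 replicate 2 only just below wild-type replicate 3. Groups were separated in the lower direction for 8.29% of all tested genes. The log2 difference was -0.85 ± 0.47 (SE; 95% interval -1.87 to 0.17). The 31.0 of Δrsf2 replicate 1 lay close to the floor and under the 62.4 that the probe set of MET17, a gene the strain lacks, read in that array, so the size of the difference is uncertain. With arrays centred on their medians, or quantile normalised, the separation was lost. The rank of the probe set within its array, which no scaling of an array can move, was at the 10.1 and 14.6 percentile in Δrsf2 and at the 23.8, 28.0 and 13.3 percentile in the wild type, so that the ranks of the groups overlapped.

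ARG7 (YMR062C) encodes ornithine acetyltransferase, which frees ornithine and passes its acetyl group back to glutamate. It was at 420.0 and 695 in Δrsf2, and at 381, 604 and 729 in the wild type. Both mutant values fell inside the wild-type range, and the log2 difference was -0.03 ± 0.51 (SE; 95% interval -1.15 to 1.09).

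The cytosolic part begins with CPA1 (YOR303W), the small subunit of the carbamoyl phosphate synthetase of this pathway, which takes the amide nitrogen of glutamine. It was at 14341 and 5937 in Δrsf2, and at 9578, 4599 and 4618 in the wild type. The highest signal was in Δrsf2 replicate 1 and the next in wild-type replicate 1, which form the high spike-in set, so the groups overlapped. The log2 difference was 0.65 ± 0.70 (SE; 95% interval -0.88 to 2.18), the widest interval of the 7 genes. After quantile normalisation both Δrsf2 arrays lay above every wild-type array, at a log2 difference of 0.50 ± 0.32 (SE) and a limma adjusted p of 0.949, within a range of 0.625 to 1 over 20 alternative fits.

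ARG3 (YJL088W) encodes ornithine carbamoyltransferase, which joins ornithine and carbamoyl phosphate to citrulline and is a classic target of repression by arginine. Its signal was 95.9 and 52.1 in Δrsf2, and 3.0, 0.699 and 12.3 in the wild type. All 3 wild-type arrays lay at the floor and neither Δrsf2 array did. Groups were separated in the higher direction for 6.76% of all tested genes, and for 1.79% at a difference of at least 2-fold. Against the floor and at the main scaling, ARG3 was at least 2.52-fold higher in Δrsf2, by at least 3.41-fold in replicate 1 and 1.85-fold in replicate 2. This bound covers the floored wild-type values alone, and neither the spread between arrays nor the choice of scaling. The log2 difference was 1.05 after quantile normalisation and 0.78 in the signals as deposited. At the main scaling the fitted log2 difference was 1.33 ± 0.39 (SE; 95% interval 0.47 to 2.19), with a limma unadjusted p of 0.00583 and an adjusted p of 0.9996. The floor gives the wild-type arrays no spread at all, so this error is too small by an unknown amount.

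The ARG3 separation did not rest on the scaling. In the signals as deposited ARG3 was at 19.2 and 52.1 in Δrsf2 and at 3.0, 0.7 and 12.3 in the wild type. Its rank lay at the 20.6 and 15.9 percentile of the array in Δrsf2 and at the 2.31, 0.984 and 5.02 percentile in the wild type. The level is nevertheless one that probe sets of absent genes can reach. In Δrsf2 replicate 1 the probe sets of LEU2, which the strain lacks, read 66.4, 146 and 207, and that of MET17, also deleted, read 62.4, beside 95.9 for ARG3. In Δrsf2 replicate 2 they read 6.30, 21.9 and 23.0 for LEU2 and 16.3 for MET17, all lower than the 52.1 of ARG3. In the wild-type arrays LEU2 lay between 1.5 and 30.5 and MET17 between 2.0 and 18.9, so these genes were also highest in Δrsf2 replicate 1. URA3, the other full deletion, stayed between 0.999 and 8.49 in Δrsf2 and between 0.400 and 3.40 in the wild type. HIS3, of which BY4741 keeps a part, read 14.5 to 682 over its 2 probe sets in Δrsf2 and 4.69 to 476 in the wild type. The part of this background in the ARG3 value was not tested, and detection calls were not used here.

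ARG1 (YOL058W) encodes argininosuccinate synthetase, which adds aspartate to citrulline. It was at 747 and 259 in Δrsf2, and at 473, 356 and 345 in the wild type. As for ARG2 the mutant arrays lay on either side of the wild type, but in the opposite order, with Δrsf2 replicate 1 the high one. The log2 difference was 0.18 ± 0.59 (SE; 95% interval -1.10 to 1.47).

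ARG4 (YHR018C) encodes argininosuccinate lyase, which releases arginine. It was at 784 and 1475 in Δrsf2, and at 748, 1304 and 1115 in the wild type. The log2 difference was 0.06 ± 0.47 (SE; 95% interval -0.97 to 1.10), and the groups overlapped. By compartment, 0 of 3 mitochondrial genes and 4 of 4 cytosolic genes were higher by value, with median differences of -0.04 and 0.42. However, the sign of ARG2, ARG7, ARG1 and ARG4 turned under some settings, as given in the closing section. That of CPA1 turned in 1 of 22 alternatives, the signals as deposited.

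**Figure D2:**
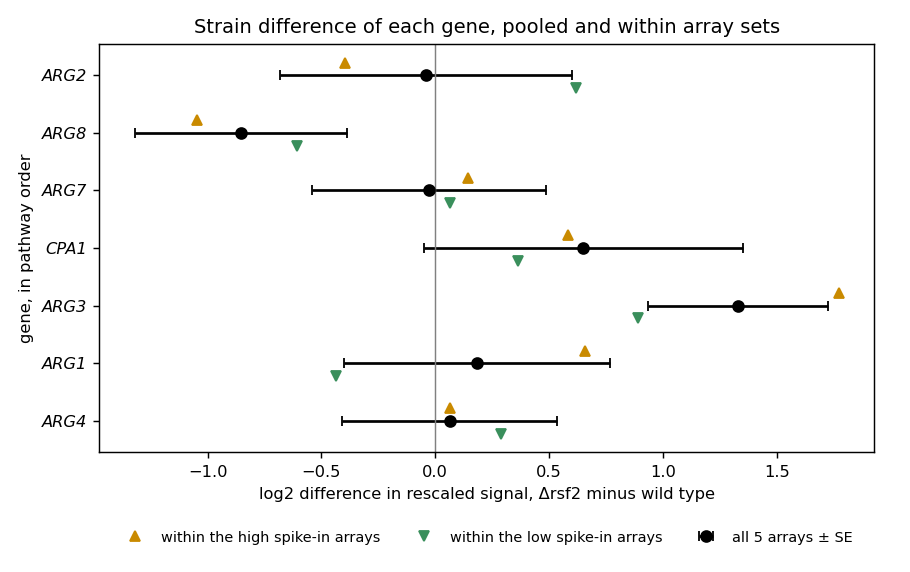
Log2 difference in rescaled signal, Δrsf2 minus wild type, for each gene in pathway order: black points are the fit over all 5 arrays with SE bars, and triangles are the difference within the high (upward) and within the low (downward) spike-in set. ARG3, CPA1, ARG7 and ARG4 lie above 0 and ARG8 below 0 in both sets, while ARG2 and ARG1 change side.

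The strains were also compared inside each set of arrays. Within the high set, Δrsf2 replicate 1 against wild-type replicate 1, the log2 differences were 1.77 for ARG3, at the floor in the wild type, 0.66 for ARG1, 0.58 for CPA1, 0.14 for ARG7, 0.07 for ARG4, -0.40 for ARG2 and -1.05 for ARG8. Within the low set, Δrsf2 replicate 2 against wild-type replicates 2 and 3, they were 0.89 for ARG3, 0.62 for ARG2, 0.37 for CPA1, 0.29 for ARG4, 0.07 for ARG7, -0.44 for ARG1 and -0.61 for ARG8. Thus 5 of 7 genes had the same sign in both sets, and the share of all tested genes was 44%. ARG1 and ARG2 had opposite signs, and that contrast was not tested. With the set as a block in the limma fit the differences were 1.27 for ARG3, 0.46 for CPA1, 0.18 for ARG2 and -0.80 for ARG8, with adjusted p-values of 0.832 to 0.991 over the 7 genes.

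For 6 of the 7 genes the range of the wild-type arrays was wider than the difference between the strain means. A range and a difference of means are unlike measures, and the share over all tested genes was not computed. The count is therefore a description only. For the remaining gene, ARG3, the wild-type range is 0 because all 3 wild-type arrays were set to the floor. The wild-type range was 1.21 log2 units for ARG2, 1.09 for ARG8, 1.06 for CPA1, 0.94 for ARG7, 0.80 for ARG4 and 0.46 for ARG1, and each exceeded the strain difference of its gene. The gap between the Δrsf2 arrays was 1.93 for ARG2, 1.53 for ARG1, 1.27 for CPA1, 0.91 for ARG4, 0.88 for ARG3, 0.73 for ARG7 and 0.60 for ARG8. Each spike-in set holds 1 Δrsf2 array, so the mutant gap and its set difference are the same quantity, and the wild type gives the separate value. High minus low, CPA1 was at 1.27 in Δrsf2 and 1.06 in the wild type, and ARG1 at 1.53 and 0.43. In the other direction, ARG2 was at -1.93 in Δrsf2 and -0.91 in the wild type, ARG4 at -0.91 and -0.69, ARG7 at -0.73 and -0.80 and ARG8 at -0.60 and -0.16. The sign was thus shared by the strains for 6 of the 7 genes, all but ARG3, which has no measured value in the wild type. Of all tested genes 59.7% shared it, where a gene with a difference of 0 at the floor likewise counts as not sharing. Over all 4245 genes the set differences of the strains, which have no array in common, correlated at r = 0.27. RNA integrity by ACT1 and the spike-in signal both moved with the sets, and their part in these values was not tested.

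**Figure D3:**
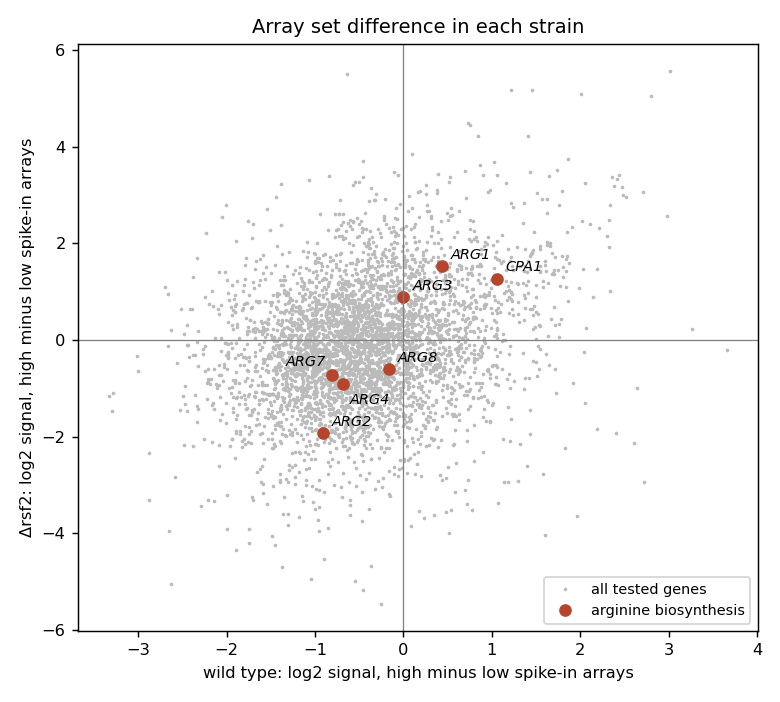
Difference in log2 signal between the high and the low spike-in arrays in Δrsf2 (vertical) and in the wild type (horizontal), with 1 grey point for each tested gene and the 7 arginine genes in red. CPA1 and ARG1 lie at the upper right and ARG2, ARG4, ARG7 and ARG8 at the lower left, so each of these 6 has the same sign in both strains.

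Relative to the wild-type mean of each gene, the median of the 7 genes was -0.39 in Δrsf2 replicate 1 and 0.33 in Δrsf2 replicate 2, and ran from -0.11 to 0.01 in the wild-type arrays. Over all tested genes it was -0.08 and 0.02 in Δrsf2 and ran from -0.33 to 0.24 in the wild type. Centring on the wild type draws its own medians towards 0, and single genes went both ways in the same array, from -0.61 for ARG2 to 0.70 for CPA1 in wild-type replicate 1. The 5 genes nearest to this median profile over the 5 arrays were PPS1, ADH3, BAP2, RCK2 and TSC10, at root mean square distances of 0.07 to 0.09 log2 units. They were ranked among 4213 other genes that passed the signal filter and are in no list used here. The 7 pathway genes themselves lay farther off, from 0.24 for ARG4 to 1.00 for ARG3. Of the ranked genes, 4.27% were nearer than ARG4, 6.2% than ARG7 and 42.1% than ARG2. The share was 59.0% for ARG8, 73.9% for ARG1, 84.1% for CPA1 and 90.2% for ARG3. The median profile is thus not that of most pathway genes.

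Genes around the pathway were counted from a list of 26, of which 23 were tested. Of the other 3, ARG81 lay under the signal filter, and ARG5,6 and DUR1,2 were not analysed here. The mitochondrial steps between ARG2 and ARG8, which ARG5,6 encodes, are therefore missing from the values above. Of the 23, 10 were higher and 13 lower by value in Δrsf2, with a median log2 difference of -0.10. None had a limma adjusted p under 0.05, and 1 (GDH1) had an unadjusted p under 0.05, beside 3.27% of all tested genes. Groups were separated for 2 of the 23, ARG80 and GDH1, both lower, beside 15.1% of all tested genes in either direction and 8.29% in the lower one.

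Among the regulators, ARG80 (YMR042W), a MADS-box partner of Mcm1 in the arginine-responsive complex, stood lowest. It was at 116 and 83.0 in Δrsf2, and at 244, 177 and 252 in the wild type. Both Δrsf2 arrays lay below all wild-type arrays, and the log2 difference was -1.17 ± 0.56 (SE), with a limma unadjusted p of 0.0584 and an adjusted p of 0.9996. At least 2-fold lower without overlap were 117 of all tested genes, or 2.76%. The difference was -1.07 within the high and -1.35 within the low spike-in set, and its rank lay at the 24.5 and 22.6 percentile in Δrsf2 against the 58.7, 39.2 and 42.8 percentile in the wild type. The other parts of the complex did not share this pattern. ARG82, an inositol polyphosphate kinase, was at 0.69 ± 0.73 (SE) and MCM1 at 0.30 ± 0.49, and ARG81, the arginine sensor, read 191 and 83.9 in Δrsf2 and 81.9, 108 and 111 in the wild type. GCN4, the activator of amino acid synthesis genes, was at 11729 and 5896 in Δrsf2 and at 11609, 6967 and 5063 in the wild type, high in the high set in both strains, as CPA1 was.

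The groups overlapped for all 4 transport and 5 breakdown genes tested, where 15.1% of all tested genes did not overlap. ORT1, which carries ornithine out of mitochondria, had a log2 difference of 0.53 ± 0.59 (SE), the arginine permease CAN1 -0.41 ± 0.59, its relative ALP1 -0.09 ± 0.54 and the general amino acid permease GAP1 0.41 ± 0.48. CAR1, arginase, was at 3298 and 6622 in Δrsf2 and at 8246, 5238 and 4555 in the wild type, a difference of -0.32 ± 0.61. CAR2, ornithine transaminase, was at -0.86 ± 0.62, with -2.49 within the high and 0.36 within the low spike-in set. Of the 5 breakdown genes tested, 3 (CAR1, CAR2 and PRO3) were lower by value and the proline oxidation genes PUT1 and PUT2 higher, at 0.12 ± 0.45 and 0.30 ± 0.54.

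Supply of glutamate held the lowest value near the pathway. GDH1, the NADP-dependent glutamate dehydrogenase that makes the starting compound from ammonium, was at 339 and 193 in Δrsf2 and at 1292, 1358 and 2041 in the wild type, a log2 difference of -2.58 ± 0.47 (SE) with a limma adjusted p of 0.144 (3.588e-05 to 0.9993 over 20 alternative fits). Its paralog GDH3 was at 516 and 444 in Δrsf2 and at 1896.5, 353 and 2345 in the wild type. Wild-type replicate 2 lay under both mutant arrays, and the log2 difference was -1.28 ± 0.71 (SE). It was -2.14 without wild-type replicate 2, -0.77 without wild-type replicate 3, -0.93 without wild-type replicate 1 and -0.15 with array weights. Glutamate synthase GLT1 was at 0.67 ± 0.64, glutamine synthetase GLN1 at 0.03 ± 0.42, and the aspartate aminotransferases AAT1 and AAT2 at 0.05 ± 0.61 and -0.42 ± 0.52. The 4 genes that use carbamoyl phosphate, ornithine or arginine elsewhere were lower by value, from -0.66 for MSR1, the mitochondrial arginyl-tRNA synthetase, to -0.10 for YDR341C, its cytosolic counterpart. URA2, which makes its own carbamoyl phosphate for pyrimidines, was at -0.55 ± 0.50 and ornithine decarboxylase SPE1 at -0.26 ± 0.80.

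**Figure D4:**
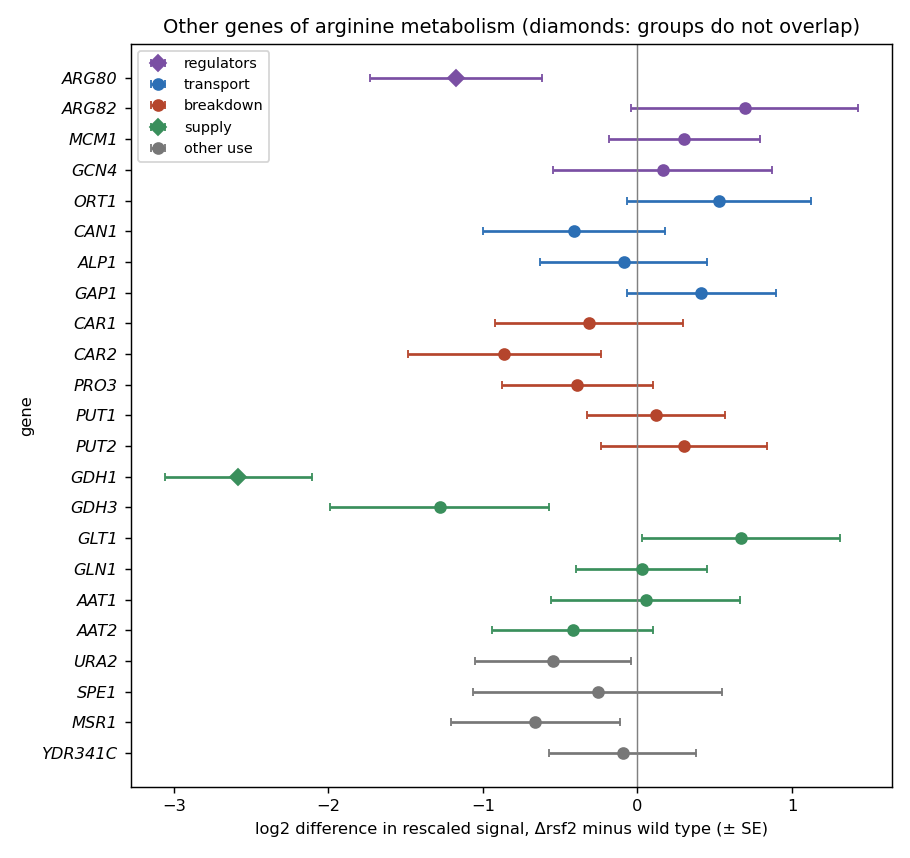
Log2 difference in rescaled signal, Δrsf2 minus wild type, with SE bars for the 23 tested genes of arginine regulation, transport, breakdown, precursor supply and other use; diamonds mark genes whose groups do not overlap. ARG80 at -1.17 and GDH1 at -2.58 are the 2 diamonds.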

How the data were processed

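Per the submitters' processing notes the authors used MAS5, and the deposited file gives its signal intensity on a linear scale for each probe set and array. Its version and settings are not given in the sources used here. Samples were grouped by their titles. The arrays carry 9335 probe sets, of which 6504 are tied to a lone gene by the platform annotation, 328 to several, 2443 to none and 60 are controls. Names came from the RefSeq table of assembly R64, matched by gene identifier for all 6504. Coordinates are left out, as the array's build is not named. For a gene with several probe sets the brightest on average was taken. Arrays were rescaled to a common 2% trimmed mean (500), floored and put on the log2 scale, and genes with a mean under the 25th percentile were left out, with ARG3, ARG8 and RSF2 kept by exception.

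Strains were compared with limma 3.58.1 in R 4.3.3 (lmFit, eBayes with trend, group as the only term, all 5 arrays), with Benjamini-Hochberg adjustment over all 4245 genes. The fit was run on simulated data to see that it returned the differences put in. The noise there was independent, at the wild-type spread of each gene for every array, and without array sets. That run therefore does not test the p-values for the arrays used here. Errors are SE unless stated. P-values measure the spread between biological replicates as labelled, which need not come from separate days. The pathway genes were shown whatever their values, and other genes by list, with values for those over 1 in log2 difference or without overlap and examples of each role. These genes, lists and the spike-in sets were chosen with earlier results of these data known. Scaling, floor, filter, probe set choice, variance trend, array weights, blocks and left-out arrays were varied.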

Additional observations from a re-analysis of the deposited data

How the results depend on the processing

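The settings changed no call for the 7 genes over all 5 arrays, and 0 passed, but the small differences turned sign easily. ARG3 stayed higher in 21 alternatives (0.78 to 4.58, the latter without a floor and no bound) and ARG8 lower in 21 (-1.23 to -0.44). Without rescaling, which shifted the median over all genes by -1.16, CPA1 was at -0.51, ARG1 at -0.98 and ARG4 at -1.10, with 1 of 7 genes higher and a pathway median of -1.10. With array weights ARG4 was at -0.20 and the median at -0.13. With a block for the spike-in set ARG2 was at 0.18, ARG7 at 0.10 and the median at 0.18. Within the high set ARG7 and the median were both at 0.14, and within the low set, or without both high arrays, ARG2 was at 0.62, ARG7 at 0.0665, ARG1 at -0.44 and the median at 0.29. With trimmed means over single-gene probe sets, chosen after seeing the data, ARG7 was at 0.00513.

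Leaving out each array in turn gave -1.003 to 0.92 for ARG2, -0.39 to 0.33 for ARG7, -0.58 to 0.95 for ARG1, -0.39 to 0.52 for ARG4, 0.01 to 1.29 for CPA1 and 0.89 to 1.77 for ARG3. The lowest and highest pathway medians were -0.39 (without Δrsf2 replicate 2) and 0.33 (without Δrsf2 replicate 1). In these fits 0 to 1 of the 7 genes passed. The 1 was ARG3, without either Δrsf2 array, where the lone mutant array is assumed to vary like the wild type. All wild-type values of ARG3 are set to the floor and have no spread, so those passes say nothing about replicate variation.

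Over all genes, 0 passed at an adjusted p of 0.05 and 76 were at least 2-fold higher and 117 lower without overlap. Leaving out each array gave 0 to 55 calls, 75 to 443 higher and 125 to 506 lower, and leaving out both high arrays 387, 328 and 532. With each array left out in turn the unadjusted count ran from 62 without wild-type replicate 2 to 444 without Δrsf2 replicate 2, and was 1030 without both high arrays, 224 after quantile normalisation, 249 with no filter, 274 with array weights and 287 with a block for the spike-in set, against 139 in the fit as reported. The size counts were 65 higher and 165 lower after quantile normalisation, and 62 and 155 with centred arrays. As deposited they were 0 and 1005. The higher count was 45 with log2(signal + 50), 183 with no filter and 26 with a filter at the 50th percentile. RSF2 was the 1 gene that passed with no floor and the 1 with that filter. With array weights 5 passed, RSF2, HPF1, YHB1, ERG4 and RDN18-1.

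The replicate numbers name cultures and are not stated to pair them. Deviations from the group means correlated at 0.27 for the arrays numbered 1 and at -0.09 for those numbered 2. Those of Δrsf2 replicate 2 and wild-type replicate 3 correlated at 0.47. With only 2 Δrsf2 arrays their deviations are equal and opposite, so each value also holds for the other Δrsf2 array with its sign turned. The 0.27 is the same quantity as the r of the set differences given earlier. These values therefore cannot decide whether cultures were paired. The replicate block, which leaves wild-type replicate 3 without a partner, gave ARG2 at 0.26, ARG7 at 0.17 and a median of 0.17, and 2 genes passed, HPF1 and SHH3.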
